A study of Homo sapiens with 12 samples.

Results

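The 41 genes described here encode heat shock proteins, the chaperones and co-chaperones that work with them, and the heat shock transcription factors. They were taken by symbol from a list. No measured value was a criterion for membership, but the list was drawn up with earlier results of these data known. All 41 were found among the 58721 genes of the deposited counts. The list holds 8 genes of the HSP70 family, 2 of HSP90, 2 of the HSP60 and HSP10 pair, 2 small heat shock proteins, 6 HSP40 (DNAJ) proteins, 9 co-chaperones, the 8 subunits of the TRiC (CCT) chaperonin, 2 heat shock factors, the polyubiquitin gene UBB and SERPINH1. The set was proposed as cytosolic, but the products of HSPA9, HSPD1 and HSPE1 work in mitochondria and that of SERPINH1 in the endoplasmic reticulum, so these 4 genes do not match that name.

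As background, HSP70 and HSP90 bind unfolded proteins and release them in cycles driven by ATP. HSP40 proteins hand clients to HSP70, co-chaperones such as STIP1 and CDC37 pass clients on to HSP90, and TRiC folds actin and tubulin inside a closed chamber. Part of these genes are induced on protein damage by HSF1, which binds heat shock elements in their promoters, while the rest are expressed at all times. On this textbook basis 19 members were classed as inducible and 22 as constitutive.

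HepG2, an established human liver cancer cell line, was depleted of the RNA-binding protein IGF2BP3 by transient siRNA transfection (siIGF2BP3), next to cells given a non-targeting siRNA (siControl). Input libraries stand for transcript levels. RPF libraries hold fragments that ribosomes shielded from RNase I. There were 3 libraries in each of 4 groups. All cells had been transfected and received cycloheximide before lysis, and neither the labels nor the study's methods name a heat shock or another stress treatment. The knockdown was transient and in 1 cell line, and nothing in the labels says that the 3 libraries of a group came from separate cultures, so the p-values measure the spread between these libraries only.

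Library totals were between 11219750 and 14797573 counts in Input and between 13036423 and 31510601 in RPF, and levels are given as CPM, counts scaled to a common library total. The 41 genes took between 1.71% and 1.81% of Input counts and between 1.50% and 1.67% of RPF counts. IGF2BP3 itself lay between 127 and 133 CPM in siControl Input and between 97.9 and 105 in siIGF2BP3 Input, and fell from 74.6 to 78.1 CPM in siControl RPF to 21.9 to 28.0 in siIGF2BP3 RPF. The 8 hepatocyte markers summed to at least 47400 CPM in each library, whereas the fibroblast, endothelial and glial lists summed to at most 10.0, 6.49 and 5.49 CPM. The 5 leukocyte markers summed to between 1930 and 3830 CPM, nearly all of it LYZ, with CD3E at 0 in every library. Between siControl RPF replicates 2 and 3 the mean chi-square per gene was 0.941, where sampling noise alone gives 1 (1.06 over protein-coding genes, and at least 1.15 and 1.27 in every other pair of replicates), so every mean and SD takes them as 1 sample (n = 2). SiIGF2BP3 RPF replicate 1 stood apart from replicates 2 and 3 of its group (mean chi-square per gene 19.8 and 21.5, against 1.15 between those replicates), and the calls in RPF are therefore given with and without it.

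HSPA1A, HSPA1B and DNAJB1, which encode the major stress-induced HSP70 and its HSP40 partner, were more abundant in Input after IGF2BP3 knockdown, whereas 6 constitutive chaperone genes were slightly lower. Of the 39 members with enough Input counts to be tested, 10 passed an adjusted p of 0.05 (edgeR quasi-likelihood test, Benjamini-Hochberg over all 14759 genes tested). Among all tested genes 5.96% passed, and among the 7128 genes with a mean of at least 20 CPM, a level that all 39 members reached, 10.1% passed. HSPA1A, HSPA1B, DNAJB1 and CDC37 rose, where 4.05% of all genes and 6.31% of those of at least 20 CPM did so. HSPA1A and HSPA1B are near-identical and are counted here as separate genes, although their separate values are uncertain. HSPA4, HSPA9, HSP90AB1, CCT3, CCT5 and CCT7 fell, against 1.90% and 3.82%. In bulk samples a change in the share of cells that express a gene and a change in the transcript per cell cannot be told apart.

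HSPA1A and HSPA1B, neighbouring genes on chromosome 6 (hg38, chr6:31815464-31817946 and chr6:31827735-31830255, both on the plus strand), encode the major stress-induced HSP70. HSPA1A was at 114, 148 and 140 CPM in siControl Input replicates 1, 2 and 3, against 224, 223 and 224 CPM in siIGF2BP3 Input replicates 1, 2 and 3. All 3 knockdown libraries lay above all 3 control libraries, and the control libraries spread more (134 ± 17.6 CPM, SD, n = 3) than the knockdown libraries (224 ± 0.607 CPM, SD, n = 3). With 3 libraries in each group, this difference in spread was not tested. The fitted log2 fold change was 0.69 (SE 0.07, edgeR adjusted p = 7.03e-06).

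HSPA1B followed HSPA1A, with 81.3, 109 and 103 CPM in siControl Input and 163, 165 and 163 CPM in siIGF2BP3 Input, and a log2 fold change of 0.69 (SE 0.08, edgeR adjusted p = 5.07e-05). The deposited counts of both genes were fractional in all 12 libraries, as counts can be when reads that fit several places are split. The ratio of HSPA1B to HSPA1A was between 0.712 and 0.739 in the 6 Input libraries and between 0.934 and 0.965 in the 6 RPF libraries. How reads were divided between these near-identical genes was not tested, and their separate values are uncertain. Summed into 1 entry, in the fit that also added pseudogene counts to their genes, the pair rose by the same 0.69 (edgeR adjusted p = 6.79e-05). A long non-coding RNA gene, ENSG00000285565, overlaps HSPA1B on the same strand and went from 84.2 CPM in siControl Input to 131 CPM in siIGF2BP3 Input.

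DNAJB1 (chr19:14514770-14529770, minus strand) encodes the HSP40 protein that serves HSPA1A and is itself a classical heat shock gene. It was at 150, 176 and 175 CPM in siControl Input. In siIGF2BP3 Input it was at 239, 232 and 249 CPM, without overlap. The log2 fold change was 0.48 (SE 0.05, edgeR adjusted p = 7.03e-06). In all 15 alternative analyses, among them the leaving out of each Input library, HSPA1A, HSPA1B and DNAJB1 kept the call, with log2 fold changes of 0.58 to 0.77, 0.57 to 0.78 and 0.40 to 0.51.

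HSF1 recognises alternating GAA and TTC blocks set 2 bases apart. Promoters with such blocks are shown for some of the members that moved (HSPA1A, HSPA1B, DNAJB1, HSP90AB1 and CHORDC1) and, beside HSP90AB1, for its inducible counterpart HSP90AA1, which did not pass any test. These were picked for holding the blocks. HSPA9, not shown, also held them in the windows searched, whereas CDC37, HSPA4, CCT3, CCT5 and CCT7 moved and held none. RefSeq windows of 300 bases (250 before and 50 after an annotated start, GRCh38.p14) were found for 37 members, with 53 windows in all, and for 35116 starts over all genes. The pair of blocks searched was GAANNTTC or TTCNNGAA, each of which reads the same on both strands, and the triple was GAANNTTCNNGAA or TTCNNGAANNTTC, which are each other's reverse complement and contain 2 overlapping pairs each. Stretches of 6 members follow, 5′ to 3′ along the gene's strand, in lower case with the matched pairs in capitals.
HSPA1A: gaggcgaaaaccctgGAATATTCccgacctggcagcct
HSPA1B: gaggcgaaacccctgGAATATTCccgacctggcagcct
DNAJB1: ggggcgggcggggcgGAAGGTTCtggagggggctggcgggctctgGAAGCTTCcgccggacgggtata
HSP90AA1: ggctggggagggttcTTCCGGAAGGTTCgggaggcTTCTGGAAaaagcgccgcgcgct
HSP90AB1: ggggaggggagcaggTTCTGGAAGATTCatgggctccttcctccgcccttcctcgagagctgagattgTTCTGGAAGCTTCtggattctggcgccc
CHORDC1: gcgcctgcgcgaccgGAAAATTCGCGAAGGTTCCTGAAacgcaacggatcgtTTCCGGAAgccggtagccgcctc

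These stretches lie at chr6:31815422-31815459 (plus), chr6:31827618-31827655 (plus), chr19:14518422-14518489 (minus), chr14:102087090-102087147 (minus), chr6:44247763-44247858 (plus) and chr11:90223050-90223124 (minus), in the order printed. The capitals begin 106 bases before the start in HSPA1A (position -106) and at -105 in HSPA1B, and the 250 bases upstream of these 2 genes were identical at 235 aligned positions (94.0%). In DNAJB1, pairs began at -77 and -47 of its second listed start. A run of 5 alternating blocks began at -60 in CHORDC1. The HSP90AB1 stretch belongs to the third of its listed starts, and holds triples at -165 and -112.

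Over the 37 members, 21 had a pair of blocks in at least 1 window (56.8%), where 16.2% of all 27305 genes with a window did, and 8 had a triple (21.6%, against 0.608%). Counted per window, 13.5% of all 35116 windows held a pair and 0.490% a triple. Inducible members held a pair in 13 of 18 cases and a triple in 5, and constitutive members in 8 and 3 of 19 cases. The windows of HSPA1A (inducible) and HSPA1L (constitutive) overlap on opposite strands, and their pair is the same site, so 1 site is counted in both classes. Of the 4 members that rose in Input, 3 held a pair and 0 a triple, and of the 6 that fell, HSPA9 and HSP90AB1 held a pair and HSP90AB1 a triple. The letters therefore occurred among members that rose, members that fell and members that did not pass the test, such as HSPA8 with 2 triples and HSP90AA1 with 1. A match is a run of letters and not a measured binding site.

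**Figure D1:**
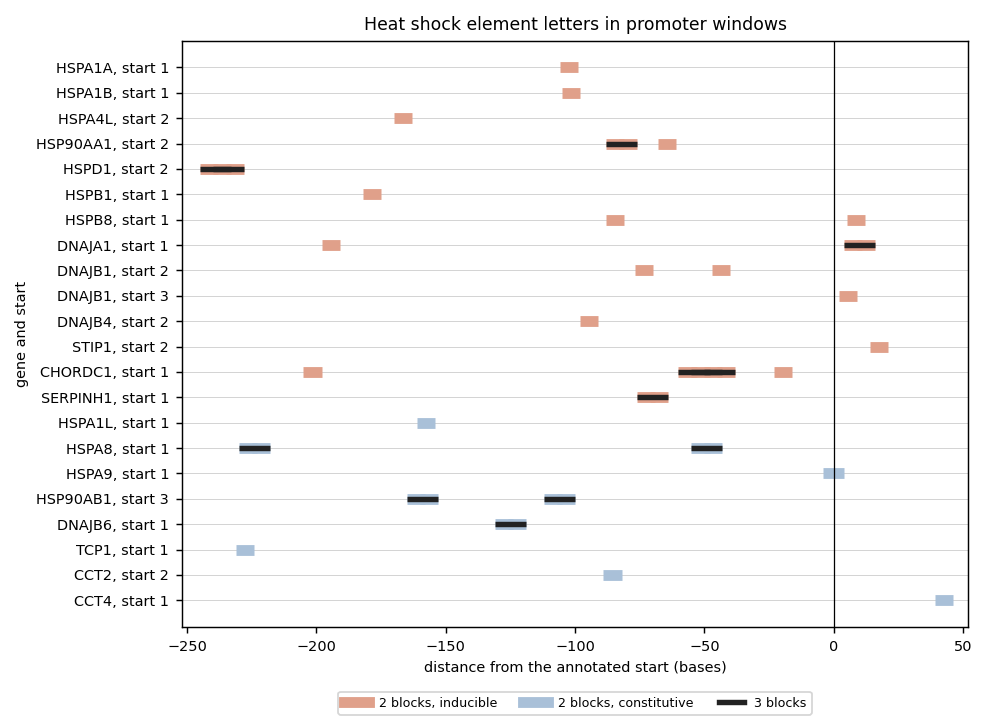
Positions of heat shock element letters in the promoter windows of the 21 members that hold them, as distance in bases from each annotated start (horizontal axis), with 1 row for each gene and start. The rows of HSPA1A and HSPA1L show the same site, read from opposite strands. Wide bars are pairs of blocks (orange, inducible, and blue, constitutive) and thin black bars are triples. Most matches lie upstream of the start in both classes, as do 250 of the 300 bases of each window, so no preference for a position is shown.

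The other inducible members did not follow HSPA1A. HSP90AA1, the inducible HSP90, was at 3239, 3002 and 3267 CPM in siControl Input against 3369, 3293 and 3093 CPM in siIGF2BP3 Input (log2 fold change -0.01, SE 0.05). HSPH1, a nucleotide exchange factor of HSP70, was at 135, 113 and 117 CPM against 153, 128 and 135 CPM (0.14, SE 0.06, edgeR adjusted p = 0.198), with overlapping groups. HSPB1, a small heat shock protein that holds unfolded clients, was at 87.0, 85.5 and 80.5 CPM against 86.9, 101 and 103 CPM (0.15, SE 0.06, edgeR adjusted p = 0.130). Both estimates were above 0, but 2 knockdown libraries of HSPH1 and 1 of HSPB1 did not exceed the highest control.

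BAG3, which links HSP70 to autophagy, was at 38.3, 43.9 and 40.4 CPM in siControl Input against 45.1, 42.6 and 45.5 CPM in siIGF2BP3 Input (log2 fold change 0.07, SE 0.07). UBB was at 616, 626 and 612 CPM against 625, 640 and 665 CPM (0.01, SE 0.04). HSPE1, the HSP10 of mitochondria, was at 283, 247 and 267 CPM against 280, 269 and 270 CPM (-0.01, SE 0.05). The groups overlapped in each of these 3 genes, and none passed the test. HSPD1, the HSP60 that HSPE1 caps, was lower in all 3 knockdown libraries (1275, 1323 and 1251 CPM against 1227, 1227 and 1210 CPM) but did not pass the test (-0.12, SE 0.04, edgeR adjusted p = 0.106). The remaining inducible members HSPA4L, DNAJA1, DNAJB4, STIP1, AHSA1, CHORDC1, FKBP4 and SERPINH1 had estimates of -0.01, -0.12, -0.15, -0.10, -0.11, -0.10, -0.15 and -0.18, and none passed.

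The classes are set side by side without a test of their difference. Of 18 inducible members tested, 3 rose and 0 fell, with a median log2 fold change of -0.01 and a range of -0.18 to 0.69. The 3 that rose were DNAJB1 and the near-identical HSPA1A and HSPA1B, whose separate values are uncertain. Of 21 constitutive members tested, 1 rose and 6 fell, with a median of -0.09 and a range of -0.19 to 0.22. The median of all genes tested was 0.00, with 4.05% rising and 1.90% falling. Of the genes with a mean of at least 20 CPM, 6.31% rose and 3.82% fell. In a narrower list of 9 strongly inducible genes (HSPA1A, HSPA1B, HSPB1, HSPH1, HSP90AA1, DNAJB1, DNAJB4, BAG3 and CHORDC1) the median was 0.14, and 6 of the 9 estimates were above 0. HSPB8, an inducible small heat shock protein, had 0 counts in the 3 siControl Input libraries, which allows up to 0.203 to 0.240 CPM, and at most 0.178 CPM in siIGF2BP3 Input, and HSPA1L was at most 0.440 CPM in Input. These 2 genes were not tested in Input.

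Of the constitutive HSP90 and HSP70 members, HSP90AB1, HSPA9 and HSPA4 were called as lower in Input and HSPA8 was not. HSP90AB1 (chr6:44246166-44253888, plus strand), the constitutive HSP90, was at 5625, 5744 and 5873 CPM in siControl and 5436, 5265 and 5111 CPM in siIGF2BP3 (log2 fold change -0.17, SE 0.05, edgeR adjusted p = 0.0243). HSPA9, the mitochondrial HSP70, was at 931, 987 and 1003 CPM against 916, 900 and 877 CPM (-0.17, SE 0.05, edgeR adjusted p = 0.0277). HSPA4, an HSP110-type exchange factor, was at 330, 316 and 339 CPM against 303, 298 and 290 CPM (-0.19, SE 0.04, edgeR adjusted p = 0.00898). In each of these 3 genes the groups did not overlap. HSPA8, the constitutive HSP70, was at 377, 357 and 371 CPM against 365, 366 and 364 CPM and did not pass (-0.06, SE 0.04). The HSPA1A to HSPA8 ratio of CPM per kilobase of transcript was 0.286, 0.390 and 0.356 in siControl Input and 0.577, 0.575 and 0.581 in siIGF2BP3 Input.

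All 8 TRiC subunits had estimates below 0 in Input, between -0.17 and -0.06, and 3 of them passed. CCT5 was at 413, 423 and 415 CPM in siControl and 392, 385 and 380 CPM in siIGF2BP3 (log2 fold change -0.16, SE 0.04, edgeR adjusted p = 0.0238). CCT3 was at 216, 218 and 215 CPM against 195, 201 and 204 CPM (-0.16, SE 0.04, edgeR adjusted p = 0.0250). CCT7 was at 197, 193 and 187 CPM against 167, 180 and 181 CPM (-0.17, SE 0.05, edgeR adjusted p = 0.0248). The 3 subunits shifted by a like amount and each without overlap of the groups. CCT2 was at 110, 116 and 112 CPM against 107, 106 and 105 CPM, also without overlap, and did not pass (-0.13, SE 0.05, edgeR adjusted p = 0.107).

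CDC37, the co-chaperone that brings kinases to HSP90, was the only one of the 9 co-chaperones among the members that passed in Input. It was at 190, 186 and 193 CPM in siControl and 239, 201 and 247 CPM in siIGF2BP3 (log2 fold change 0.22, SE 0.06, edgeR adjusted p = 0.0173), so the 3 knockdown libraries were higher but spread widely (229 ± 24.2 CPM, SD, n = 3). HSF1, the factor that induces heat shock genes, was at 46.7, 42.8 and 44.4 CPM against 49.5, 48.9 and 52.4 CPM, higher in all 3 knockdown libraries without passing (0.13, SE 0.06, edgeR adjusted p = 0.259). HSF2 likewise did not pass (0.19, SE 0.08). The constitutive members DNAJA2, DNAJB2, DNAJB6, BAG1, ST13 and PTGES3 had estimates of -0.14, -0.08, 0.04, -0.09, -0.04 and -0.07, and none passed.

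The calls other than HSPA1A, HSPA1B and DNAJB1 depended on single libraries. Without siIGF2BP3 Input replicate 3 these 3 genes alone were called, without siControl Input replicate 3 they and CDC37, without siControl Input replicate 2 they, HSPA4 and HSP90AB1, and without siIGF2BP3 Input replicate 2 they, HSPA4, CDC37 and CCT7. Without siIGF2BP3 Input replicate 1 the calls of CDC37, CCT3 and CCT7 were lost and that of HSPB1 was gained. Counted without a test, the groups did not overlap for 21 of the 39 members in Input (7 higher and 14 lower in siIGF2BP3), where 25.0% of all genes tested did not overlap. That share is over genes of all levels, many of them less abundant than the members.

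In RPF libraries the rise of HSPA1A was not seen. HSPA1A was at 84.6, 80.4 and 81.7 CPM in siControl RPF replicates 1, 2 and 3 and at 115, 80.2 and 79.95 CPM in siIGF2BP3 RPF replicates 1, 2 and 3. Only siIGF2BP3 RPF replicate 1, the library that stood apart, was high. The log2 fold change was 0.17 (SE 0.15, edgeR adjusted p = 0.651) with that library and -0.04 (SE 0.03, edgeR adjusted p = 0.404) without it. HSPA1B showed the same, with 79.0, 75.5 and 77.8 CPM against 110, 75.5 and 75.5 CPM. HSPB1 was at 68.0, 62.1 and 63.5 CPM in siControl RPF and 100.0, 62.9 and 62.3 CPM in siIGF2BP3 RPF, again high in replicate 1 alone (log2 fold change 0.23, SE 0.19, and -0.05, SE 0.04, without it).

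DNAJB1 footprints lay between the Input rise and no change. They were at 116, 111 and 116 CPM in siControl RPF and 140, 134 and 126 CPM in siIGF2BP3 RPF, higher in all 3 knockdown libraries. The log2 fold change of 0.24 (SE 0.06) did not pass (edgeR adjusted p = 0.109), and without siIGF2BP3 RPF replicate 1 it was 0.18 (SE 0.03) and passed (edgeR adjusted p = 0.00394).

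Of the 41 members, all of them tested in RPF, only CHORDC1 passed, where 1.66% of the 20192 genes tested passed, 1.02% rising and 0.649% falling. The fit behind these shares counts siControl RPF replicates 2 and 3 as separate libraries. With the 2 summed, 14 genes were called in place of 336, and 0 members (4 at an unadjusted p under 0.05 in edgeR). CHORDC1 (chr11:90201160-90223364, minus strand), an HSP90 co-chaperone, was at 66.7, 63.5 and 62.7 CPM in siControl RPF and 48.2, 52.7 and 54.9 CPM in siIGF2BP3 RPF, without overlap (log2 fold change -0.29, SE 0.05, edgeR adjusted p = 0.0416). In Input it was at 111, 105 and 110 CPM against 115, 103 and 96.3 CPM, with overlapping groups (-0.10, SE 0.06). The RPF call was lost in 9 of 17 alternatives, with adjusted p up to 0.237. One of these summed siControl RPF replicates 2 and 3 (-0.29, edgeR adjusted p = 0.184). In 5 others siControl RPF replicates 1, 2 or 3 or siIGF2BP3 RPF replicates 2 or 3 were left out in turn, and the last 3 were changes of the model or of the genes tested.

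Without siIGF2BP3 RPF replicate 1, 8 members passed in RPF, where 16.5% of 20615 genes did (7.97% rose and 8.57% fell). DNAJB1, ST13 (0.33, SE 0.03) and CCT4 (0.08, SE 0.02) rose. CHORDC1 (-0.26, SE 0.04), DNAJB2 (-0.24, SE 0.05), FKBP4 (-0.16, SE 0.03), SERPINH1 (-0.15, SE 0.03) and DNAJA2 (-0.09, SE 0.03) fell. That fit counts siControl RPF replicates 2 and 3 as separate libraries. With these also summed, an analysis added after seeing the data, 6 members passed (DNAJB1 and ST13 rose, DNAJB2, CHORDC1, FKBP4 and SERPINH1 fell), where 14.5% of 20901 genes did (7.08% rose and 7.40% fell). The share of members called was near that of all genes. SERPINH1 was at 218, 209 and 218 CPM in siControl RPF and at 250, 193 and 196 CPM in siIGF2BP3 RPF, so that the left-out library was the highest and the others the lowest. The RPF groups did not overlap for 10 of the 41 members (3 higher and 7 lower in siIGF2BP3), where 25.7% of all genes tested did not overlap.

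The abundant chaperones differed little in RPF once the library that stood apart was set aside. HSPA8 was at 1722, 1684 and 1712 CPM in siControl RPF and 1392, 1698 and 1700 CPM in siIGF2BP3 RPF, with replicate 1 the low one. The log2 fold change was -0.08 (SE 0.06) with it and -0.01 (SE 0.02) without it. HSP90AB1 was at 2631, 2633 and 2658 CPM against 2425, 2632 and 2674 CPM, and HSP90AA1 at 1887, 1859 and 1855 CPM against 1618, 1893 and 1924 CPM. In both HSP90 genes replicates 2 and 3 of siIGF2BP3 lay within or above the control range, and the estimates without replicate 1 were 0.00 (SE 0.02) and 0.03 (SE 0.02). HSPD1 was at 1509, 1459 and 1465 CPM against 1250, 1386 and 1452 CPM, lower in all 3 knockdown libraries without passing (-0.10, SE 0.05, and -0.06, SE 0.02, without replicate 1).

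HSPE1, UBB, BAG3 and HSPH1 did not pass in RPF. HSPE1 was at 266, 259 and 256 CPM in siControl RPF and 248, 256 and 265 CPM in siIGF2BP3 RPF, and UBB at 675, 703 and 708 CPM against 633, 675 and 697 CPM. BAG3 was at 46.6, 44.9 and 45.5 CPM against 47.4, 42.5 and 42.4 CPM. HSPH1 was at 237, 220 and 224 CPM against 204, 224 and 234 CPM. The groups overlapped in each of these 4 genes. HSF1 was at 26.4, 22.8 and 24.7 CPM against 31.4, 28.4 and 26.6 CPM, without overlap, and did not pass (0.23, SE 0.09, edgeR adjusted p = 0.257), with 0.15 (SE 0.06) without siIGF2BP3 RPF replicate 1. DGAT1 overlaps HSF1 on the other strand and went from 112 to 135 CPM in RPF, and the sources used here do not say whether counting used strand.

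Footprints of the TRiC subunits that were lower in Input were not called as lower. CCT5 was at 536, 549 and 545 CPM in siControl RPF and 501, 571 and 568 CPM in siIGF2BP3 RPF, CCT3 at 650, 642 and 667 CPM against 603, 661 and 658 CPM, and CCT7 at 741, 763 and 755 CPM against 671, 751 and 768 CPM. In all 3 the lowest library was siIGF2BP3 RPF replicate 1. CCT2 was at 352, 356 and 354 CPM against 302, 366 and 369 CPM in the same pattern. The 8 RPF estimates lay between -0.06 and 0.04, with a median of 0.00. Without replicate 1 they lay between -0.04 and 0.08, with a median of 0.04, 7 of 8 above 0, and CCT4 was called as higher.

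**Figure D2:**
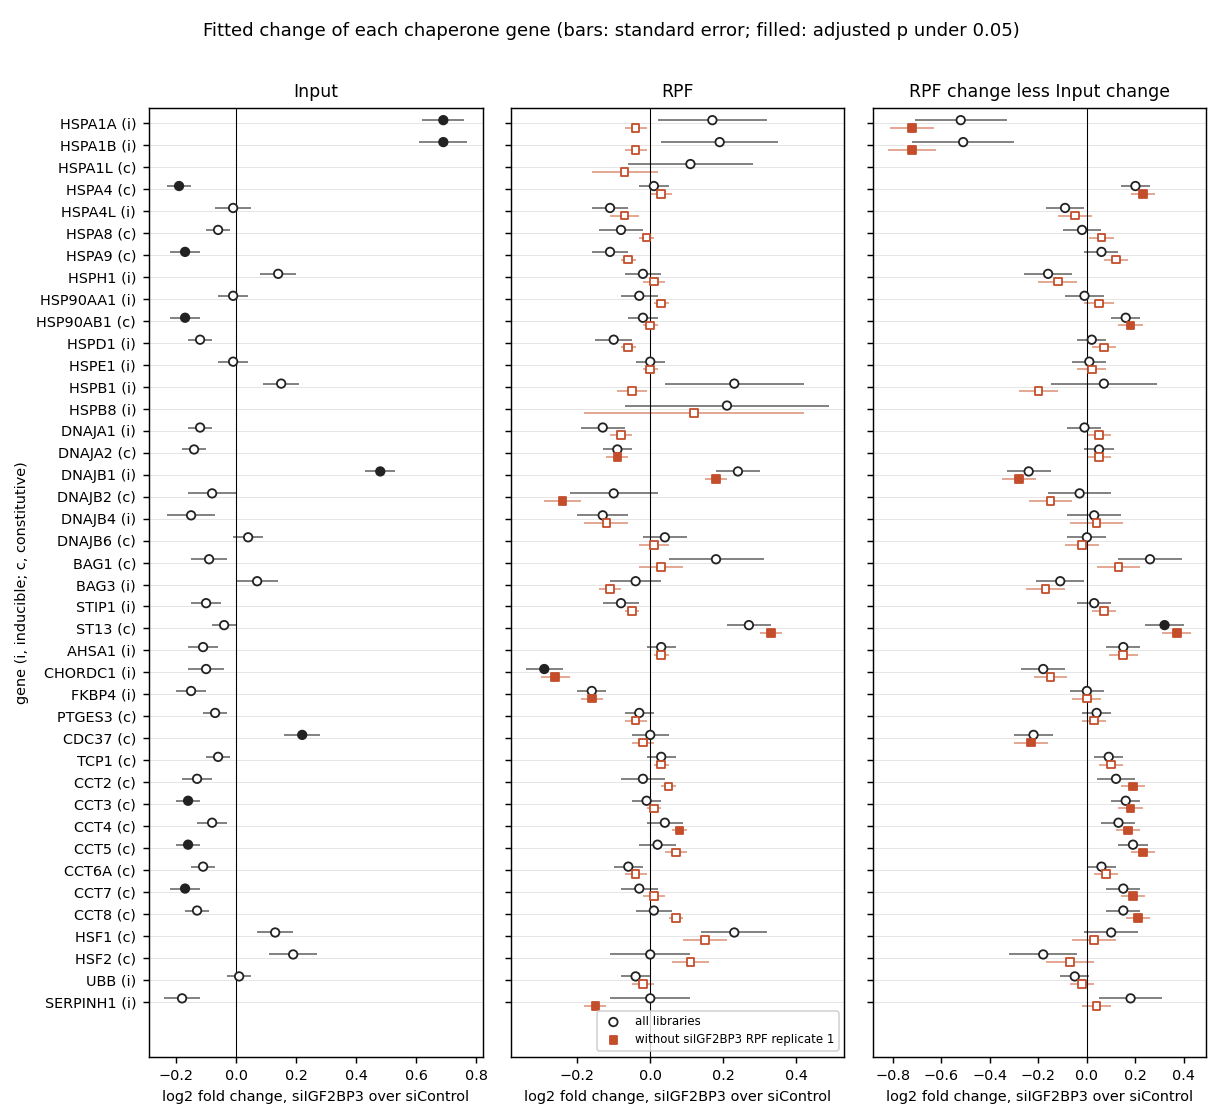
Fitted log2 fold changes of siIGF2BP3 over siControl (horizontal axes, which differ in range) for Input, RPF and the RPF change less the Input change, with 1 row per member and bars of 1 standard error. Black circles use all libraries and orange squares leave out siIGF2BP3 RPF replicate 1, filled where the adjusted p was under 0.05. HSPA1A and HSPA1B stand at 0.69 in Input and at -0.04 in RPF without that library.

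The change in RPF beyond that in Input was tested in 1 model of the 12 libraries as an interaction term, a usual measure of translational efficiency (TE). Of 39 members tested, ST13 passed (log2 difference 0.32, SE 0.08, edgeR adjusted p = 0.0325), where 2.17% of the 13395 genes tested passed, 0.814% with a higher and 1.36% with a lower TE. This fit too counts siControl RPF replicates 2 and 3 as separate libraries. With the 2 summed, 143 genes were called in place of 291, and 0 members (9 at an unadjusted p under 0.05 in edgeR). ST13 encodes the HSP70-interacting protein that stabilises the client-bound state of HSP70. Its Input level was 349, 353 and 365 CPM in siControl and 365, 354 and 355 CPM in siIGF2BP3, with overlapping groups. In RPF it was at 52.1, 54.0 and 52.1 CPM against 55.7, 66.1 and 66.2 CPM, higher in all 3 knockdown libraries. The call was lost in 16 of 26 alternatives, with estimates between 0.27 and 0.38 and adjusted p up to 0.331, among them the leaving out of any 1 library other than siControl Input replicate 1 and siIGF2BP3 RPF replicate 1. Adding the counts of its 17 pseudogenes gave 0.27 (edgeR adjusted p = 0.0812), and summing siControl RPF replicates 2 and 3 gave 0.32 (edgeR adjusted p = 0.0818).

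Without siIGF2BP3 RPF replicate 1, 13 of 39 members passed in TE, where 10.0% of 13479 genes did (4.53% higher and 5.48% lower). These shares are over genes of all levels tested, and no share was drawn for genes as abundant as the members. HSPA1A (-0.72, SE 0.09, edgeR adjusted p = 1.2e-05), HSPA1B (-0.72, SE 0.10), DNAJB1 (-0.28, SE 0.07) and CDC37 (-0.23, SE 0.07) had a lower TE, and these are the 4 members that rose in Input. ST13 (0.37, SE 0.06), HSPA4, HSP90AB1, CCT2, CCT3, CCT4, CCT5, CCT7 and CCT8 had a higher TE, the last 8 by 0.17 to 0.23. Input counts enter this difference with the opposite sign, so it holds no evidence independent of the Input result. With siControl RPF replicates 2 and 3 also summed, 11 members passed, where 8.05% of 13522 genes did (3.48% higher and 4.57% lower), and CDC37 and CCT4 no longer did. With all 12 libraries HSPA1A gave -0.52 (SE 0.19, edgeR adjusted p = 0.193) and did not pass. CDC37 footprints were at 154, 155 and 157 CPM in siControl RPF and 155, 154 and 153 CPM in siIGF2BP3 RPF, and HSPA4 footprints at 366, 363 and 347 CPM against 336, 363 and 369 CPM, both with overlapping groups. HSPA9 footprints were at 675, 671 and 660 CPM against 553, 635 and 654 CPM, lower in all 3 knockdown libraries without passing.

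By class, 0 of 18 inducible members passed in TE with all libraries in edgeR (4 at an unadjusted p under 0.05, and 0 called by DESeq2) and 1 of 21 constitutive members did, with medians of -0.01 and 0.10, where the median of all genes was 0.01. Among all genes 2.17% passed in that fit. Without siIGF2BP3 RPF replicate 1, 3 of 18 inducible members had a lower TE and 0 a higher one, and of 21 constitutive members 9 had a higher and 1 a lower TE (medians -0.01 and 0.12). Among all genes 4.53% then had a higher and 5.48% a lower TE. Input counts enter TE with the opposite sign, so these class counts hold no evidence independent of the Input result. In RPF the class medians were -0.03 and 0.00 with all libraries and -0.05 and 0.01 without that library. In the narrower inducible list the TE median was -0.16, with 7 of 9 estimates below 0.

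Levels differed between members by several orders of magnitude. Per kilobase of transcript, HSP90AB1 had the highest level in siControl Input (2249 ± 48.5 CPM per kilobase, SD, n = 3), followed by HSP90AA1 (982 ± 45.0), UBB (662 ± 7.95), HSPD1 (572 ± 16.3) and HSPE1 (477 ± 31.9), and the ranges of these 5 genes over the 3 libraries did not overlap. HSPA9 and PTGES3 (221 ± 8.62 and 212 ± 7.05) came next and overlapped each other. Per kilobase of coding sequence, HSP90AB1 also led in siControl RPF (1215 ± 4.56, n = 2), followed by UBB (1005 ± 31.3), HSPA8 (882 ± 8.86), HSPD1 (864 ± 19.4), HSPE1 (854 ± 19.0) and HSP90AA1 (853 ± 9.77), and the range of HSPD1 overlapped those of HSPA8, HSPE1 and HSP90AA1. This order changed when the pseudogene counts described further on were added, to HSPE1 (2129 CPM per kilobase), HSP90AB1 (1750), HSPD1 (1627), UBB (1473), HSPA8 (1325) and HSP90AA1 (1229). HSPA1A was at 55.9 ± 7.32 CPM per kilobase in Input and 43.1 ± 1.30 in RPF.

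The ratio of RPF to Input CPM compares 2 kinds of library and is given as a level, with no test. Its log2 value in siControl had a median of 0.14 over 39 members and -0.15 over all genes tested for TE. HSPA8 had the highest, at 2.19, 2.24 and 2.20 in library numbers 1, 2 and 3, above 94.7% of genes, and CCT7 (1.96 for the ratio of means), SERPINH1 (1.90), CCT4 (1.80), CCT2 (1.65) and CCT3 (1.59) followed. All 8 TRiC subunits were above 0, from 0.38 to 1.96 with a median of 1.23. The lowest were ST13 (-2.76) and BAG1 (-2.42), a nucleotide exchange factor of HSP70. HSP90AB1 (-1.12) and HSP90AA1 (-0.76) were below 0, as were HSPA1A (-0.69) and HSPA1B (-0.33), which moved to -1.29 and -0.91 in siIGF2BP3.

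**Figure D3:**
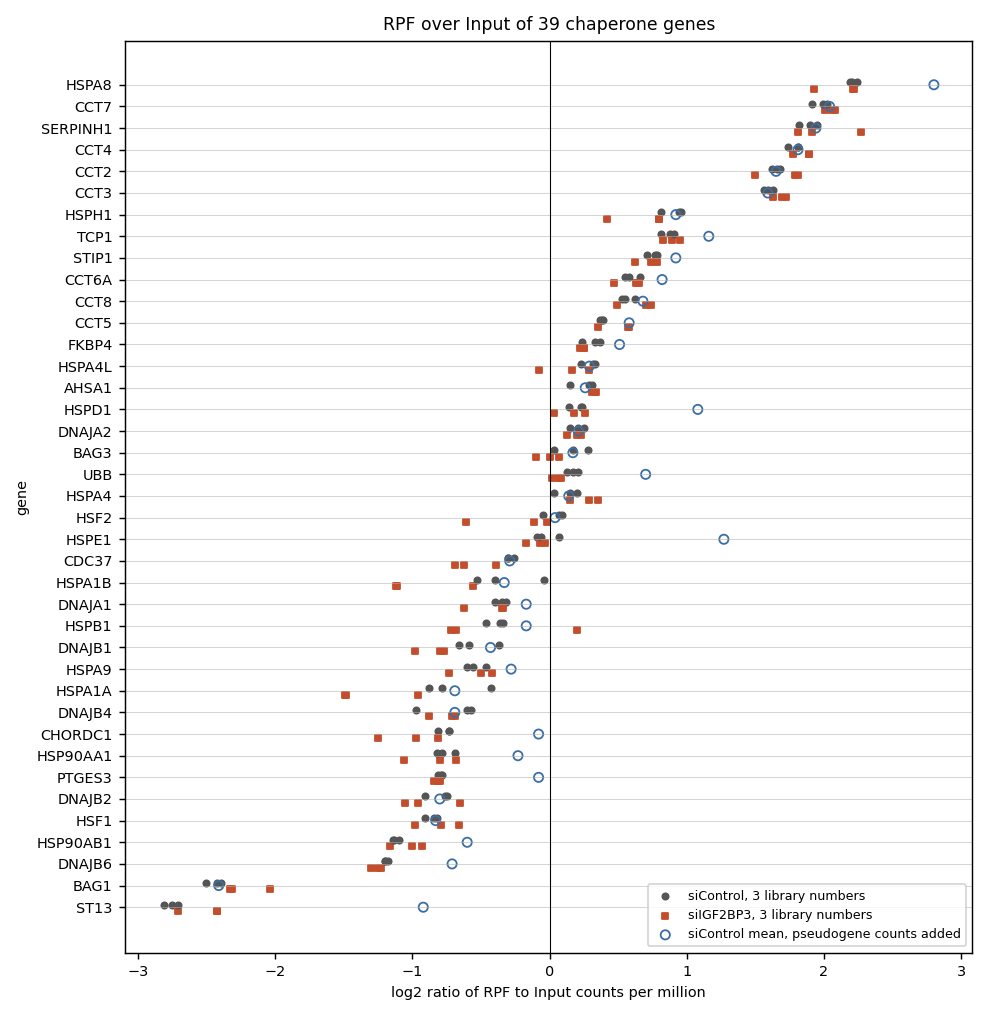
Log2 ratio of RPF to Input CPM (horizontal axis) for 39 members, ordered by the siControl ratio of means, with grey circles for the 3 siControl and orange squares for the 3 siIGF2BP3 library numbers. Open blue circles show the siControl ratio with pseudogene counts added, which lifts ST13 from -2.76 to -0.92 and HSPE1 from -0.02 to 1.27.

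Many of these genes have pseudogenes elsewhere in the genome, most of them processed (reverse-transcribed copies), and these held counts too. Whether those reads came from the gene or the pseudogene was not tested. By symbol, 146 pseudogenes belonged to 26 members. Some are annotated as unprocessed, among them UBBP4 (236 CPM in siControl RPF), CCT6P1, CCT6P3 and TCP1P1. In siControl Input they held a median of 0.16% of the counts of gene and pseudogenes together, with over 10% for 1 member (CCT8, 10.2%). In siControl RPF the median was 16.5%, with over 10% for 19 members. ST13 (72.3% ± 0.344, SD, n = 2, 17 pseudogenes) and HSPE1 (59.9% ± 0.313, 26 pseudogenes) had more RPF counts on pseudogenes than on the gene. HSPD1 (46.9% ± 0.399), PTGES3 (38.6% ± 0.0142), CHORDC1 (38.2% ± 0.160), DNAJB6 (34.0% ± 0.269) and HSPA8 (33.4% ± 0.368) followed.

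Adding the pseudogene counts moved the siControl log2 ratio of RPF to Input from 0.21 to 1.08 for HSPD1 and from 2.21 to 2.80 for HSPA8, and left BAG1 at -2.41. The shares differed little between conditions, with 71.4% ± 0.536 for ST13 and 60.4% ± 0.117 for HSPE1 in siIGF2BP3 RPF (SD, n = 3). Of 112 pseudogenes tested in RPF, 0 passed in edgeR (17 at an unadjusted p under 0.05) and 1 in DESeq2. With pseudogene counts added, CHORDC1 remained the only member called in RPF (-0.30, edgeR adjusted p = 0.0466).

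**Figure D4:**
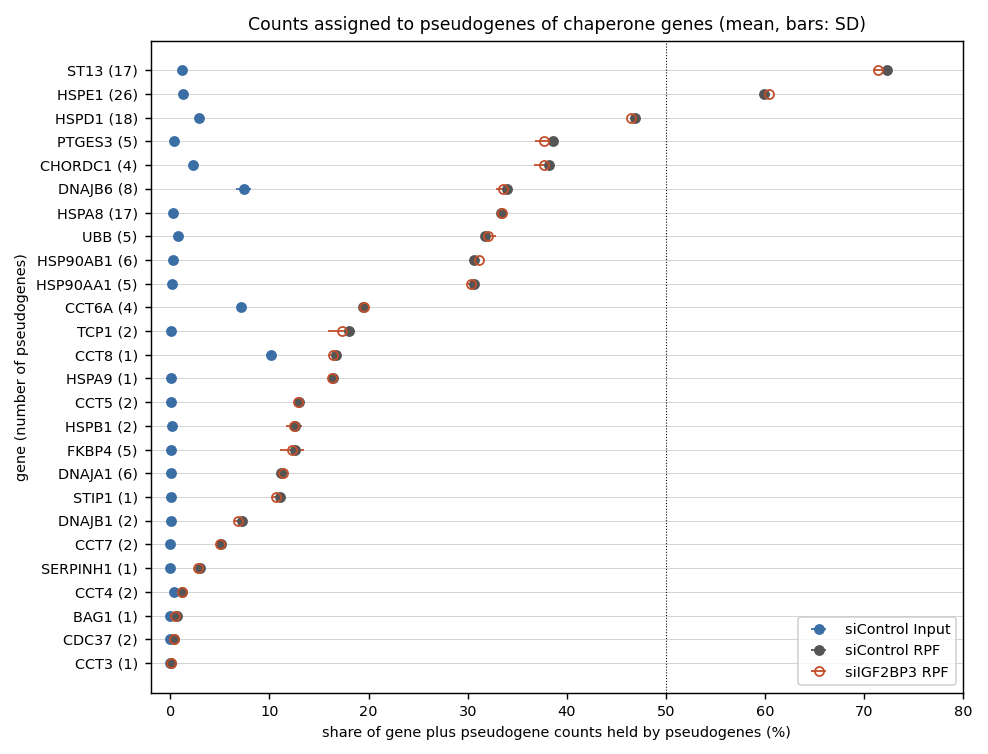
Share of the counts of gene and pseudogenes together that fell on pseudogenes, in percent (horizontal axis), for 26 members with the number of pseudogenes in brackets. Points are group means with SD bars, blue for siControl Input, filled grey for siControl RPF and open orange for siIGF2BP3 RPF, and ST13 and HSPE1 lie beyond the dotted line at 50% in RPF.

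Overlapping genes touch further members. The read-through gene HSPE1-MOB4 overlaps HSPE1 on the same strand, with 234 CPM in siControl Input against 228 CPM in siIGF2BP3 Input. TECR overlaps DNAJB1 on the other strand and was at 35.1 CPM in both Input groups. GIPC2 overlaps DNAJB4 on the same strand, at 75.7 and 68.6 CPM in Input, above DNAJB4 itself (30.5 ± 2.69 and 28.5 ± 0.993 CPM, SD, n = 3). How the reads in shared exons were divided was not tested.

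Calls in Input for the wider chaperone network are given by list, and the list of the endoplasmic reticulum held the most. Beside the 4.05% of all genes that rose and the 1.90% that fell, of 49 further co-chaperones 1 rose (HSPA12A, 0.26, SE 0.07) and 3 fell (CDC37L1, -0.27; PDCL3, -0.26; NUDC, -0.25). Of 16 other textbook HSF1 targets, IER5, a feedback regulator of HSF1, rose (0.33, SE 0.08, edgeR adjusted p = 0.0113) and CLU, a secreted chaperone, fell (-0.23, SE 0.05). Of 31 proteasome subunit genes 1 fell (PSMD14, -0.21) and 0 rose. The 18 chaperones of the endoplasmic reticulum included 8 that fell and 0 that rose in Input, among them DNAJB9 (-0.32, SE 0.09), CALR (-0.31, SE 0.05), HSPA5 (-0.29, SE 0.05) and SIL1 (-0.26, SE 0.07). The 4 list medians were -0.07 for the co-chaperones, 0.04 for the HSF1 targets, -0.09 for the proteasome and -0.17 for the endoplasmic reticulum. In RPF these lists held 2 called genes, DNAJB9 (-0.30) and PDIA6 (-0.19), and in TE 1, HSPA5 (0.31, SE 0.07, edgeR adjusted p = 0.0167). Without siIGF2BP3 RPF replicate 1, where 16.5% of all genes were called in RPF and 10.0% in TE, the calls in RPF were 2 higher and 3 lower of 50 co-chaperones, 1 and 3 of 17 HSF1 targets, 2 and 8 of 18 endoplasmic reticulum chaperones and 1 and 2 of 31 proteasome genes. In TE they were 4 higher and 0 lower of 49, 1 and 2 of 16, 4 and 0 of 18 and 4 and 0 of 31, in the same order. Over the same Input libraries 4 of the 8 hepatocyte markers also fell (median of the list -0.17), and the part of this in the members' lower values was not tested.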

How the data were processed

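The members and the gene lists were chosen with earlier results of these data known. Ribosome profiling (ART-seq) was done in HepG2 cells 2 days after siRNA transfection, with 100 µg/mL cycloheximide for 4 min, RNase I digestion and gel selection of 28 to 30 nt fragments; how Input libraries were made is not given in the sources used here. The authors used Cutadapt for trimming, STAR for alignment (hg38) and featureCounts for counting; their versions and the options for strand and shared reads are not given in the sources used here. The deposited values are the authors' estimated counts, unscaled and in part fractional (31.8% to 33.3% of genes with a count in Input, 63.2% to 66.0% in RPF), so genes with near copies are uncertain. Counting error is small at these depths, and reads carried no molecular identifiers.

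Counts were rounded, which changed a library by at most 0.0445%. GENCODE 44 gave symbols for identifiers stripped of their version (58207 of 58721 matched, 99.1%). edgeR 4.0.16 in R 4.3.3 (filterByExpr, TMM factors within each assay, robust quasi-likelihood test, Benjamini-Hochberg at 0.05) compared siIGF2BP3 with siControl in Input, in RPF and, as an interaction, in both. Each SE is the log2 fold change over the root of F. No TMM factor enters CPM. The scripts were tested on simulated data. The genes with values in each library were those called and 14 members set by name, and pseudogenes were matched by symbol. The background of genes with a mean of at least 20 CPM was chosen after seeing the data. It was drawn for the Input calls only, so the shares in RPF, in TE and of groups without overlap are over genes of all levels. Alternatives used DESeq2 1.42.0, limma 3.58.1 on log2 ratios (pseudocount 0.5), other scalings, filters, offsets and blocks, summed libraries, added pseudogene counts, and each library left out in turn; the summed siControl RPF replicates together with the leaving out of siIGF2BP3 RPF replicate 1 were added after seeing the data. Over the same-numbered libraries of the 2 conditions, correlations of deviations from group means were 0.049 to -0.019 in Input and 0.322, 0.259 and 0.098 in RPF. The RPF values were all above 0, so an effect shared by replicate number in RPF is not excluded. The numbers were not taken as pairs in the main fits, and fits with a replicate block are among the alternatives. Protein sequences were not used here.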

Additional observations from a re-analysis of the deposited data

Results flagged for a closer look

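ST13 had a different change in RPF than in Input (0.32 on the log2 scale, the only member past the threshold of the interaction test), with an estimate of -0.04 (SE 0.04) in Input and 0.27 (SE 0.06) in RPF. In siControl RPF its pseudogenes held 72.3% of the counts of gene and pseudogenes together, and with them added the difference was 0.27 (edgeR adjusted p = 0.0812). The part of the pseudogene counts in this difference was not tested.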

How the results depend on the processing

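None of the 12 called values changed sign under any alternative run. The number of genes called in RPF was 336 and became 667 with DESeq2, 201 with protein-coding genes only and 14 with siControl RPF replicates 2 and 3 summed, and in TE it went from 291 to 143 with these summed, 121 with a block for each culture and 0 with limma on log2 ratios (1666 genes at an unadjusted p under 0.05, and 392 called by DESeq2). Members called in RPF were 2 with DESeq2 (ST13 and CHORDC1, with 1 member given no adjusted p) and 0 with protein-coding genes only, the length offset or the summed replicates. Members called in TE were 0 with the length offset, added pseudogene counts, summed replicates, TMM factors over all 12 libraries, the culture block or limma; at an unadjusted p under 0.05 there were 6 in RPF and 12 in TE in edgeR with all libraries, 4 in TE with limma, and DESeq2 called 1 in TE. With siControl RPF replicates 2 and 3 summed and siIGF2BP3 RPF replicate 1 left out together, an alternative chosen after seeing the data, 3025 genes and 6 members were called in RPF and 1088 genes and 11 members in TE. With the replicate number as a replicate block, 931, 379 and 228 genes were called in Input, RPF and TE, and 10, 0 and 1 members, since CHORDC1 in RPF went to an adjusted p of 0.0852. The constitutive median in Input was -0.11 with no filter, and the inducible medians with the narrower list were 0.14 in Input and -0.16 in TE. Leaving out 1 library at a time gave 444 to 907 genes and 3 to 13 members called in Input, 11 to 3410 genes and 0 to 8 members in RPF, and 126 to 1350 genes and 0 to 13 members in TE, the highest RPF and TE counts without siIGF2BP3 RPF replicate 1. The class medians in Input then ran from -0.05 to 0.00 (inducible) and -0.13 to -0.09 (constitutive). Each lone or paired library left is assumed to vary like the rest. The 3 libraries a group limit the precision, and copies of a gene elsewhere limit what its RPF counts say.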
